A study of Mus musculus with 6 samples.

Results

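Adipose progenitor markers were followed through arrays of interscapular brown and epididymal white adipose tissue. The set was defined by gene symbol as Pdgfra, Pdgfrb, Cd34, Ly6a, Dpp4, Cd24a, Icam1, Zfp423, Pi16 and Cspg4, and a probe set, the group of short probes that together read one transcript, was taken where the platform annotation gave it one of these symbols alone. This gave 19 probe sets for 9 of the 10 genes, out of 45037 probe sets and 18193 genes on the array. No probe set used here carried the symbol Ly6a, so that gene was not analysed here. The tissues came from untreated male C57BL/6 mice of 10 to 12 weeks at ambient temperature. Both were dissected from 3 mice, and RNA of whole tissue was read on Affymetrix mouse 430_2 arrays, 3 for brown and 3 for white. Because each fat type was taken from a single depot, type and body site cannot be told apart.

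Adipose tissue holds, beside its adipocytes, a stromal and vascular compartment in which new adipocytes arise from mesenchymal progenitors. These cells are commonly sorted by surface proteins such as the platelet-derived growth factor (PDGF) receptors, the sialomucin Cd34 and the glycoprotein Cd24, while Dpp4 and Pi16 mark an early, fibroblast-like population of the tissue septa and Icam1 a population nearer to the adipocyte. The zinc finger protein Zfp423 promotes commitment to the preadipocyte, and the proteoglycan Cspg4, also called NG2, marks pericytes and other mural cells of small vessels. Progenitors are a minority of cells, and none of these markers is found in them alone.

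Most of the markers gave more signal in white tissue. By the brightest tested probe set of each gene, brown tissue was higher for 1 gene (Cspg4) and white tissue for 7 (Pdgfra, Pdgfrb, Cd34, Dpp4, Cd24a, Icam1 and Zfp423), and 1 was not called (Pi16). Geometric mean signals in white exceeded those in brown 5.73-fold for Pdgfra, 4.81-fold for Cd34 and 4.59-fold for Cd24a, while Cspg4 was 2.17-fold higher in brown. A gene or probe set is said to be higher in a tissue where the adjusted p of limma (Benjamini-Hochberg, two-sided) was under 0.05. Of all 10264 genes tested in this way, 27.7% passed with brown higher and 32.2% with white higher, 60.0% in all. In whole tissue, fewer cells of a type and less RNA per cell cannot be told apart.

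At the level of probe sets, 15 of the 19 had present calls on 3 or more of the 6 arrays and were tested. Of these, 2 were higher in brown, where 24.6% of all 19819 tested probe sets were, and 12 in white, where 29.9% were (54.5% together), and 1 was not called. On 2 every brown array lay above every white array (28.2% of all tested probe sets), on 12 every white array lay above every brown array (34.2%), and on 1 the tissues overlapped (62.4% of all did not). The median log2 difference, brown minus white, was -1.40 over the 15 and -0.06 over all tested probe sets. The filter bears on these counts, because 6 of the 15 passed through present calls on the white arrays alone (3 of Dpp4 and 1 each of Pdgfra, Icam1 and Pi16). With no filter, 2 of the 19 were higher in brown and 13 in white, where 12.8% and 14.1% of 45037 probe sets were. Among the 5 present on all 6 arrays, 1 was higher in brown and 4 in white, where 31.2% and 30.0% of 13144 probe sets were.

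Brown arrays had 35.6% to 37.5% of probe sets called present and white arrays 45.2% to 45.8%. The ratio of 3' to 5' signal of the actin control, a measure of RNA integrity, was 1.36 to 2.24 on brown arrays, highest on brown replicate 2, and 1.19 to 1.73 on white arrays. The tissue labels were borne out by Ucp1, the uncoupling protein of brown adipocytes, at 12940 ± 267 in brown and 26.1 ± 31.7 in white, and by the hormone leptin (Lep), at 54.2 ± 19.2 in brown and 1743 ± 16.5 in white. All signals here are quantile-normalised intensities in array units, means are given ± SD with n = 3 arrays per tissue, and the levels of different probe sets are not compared with each other. The number of arrays limits the precision.

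Upstream sequences are shown for 3 markers that were higher in white and for Cspg4, which was higher in brown. Each is the 250 bases before the transcript start in RefSeq (GRCm38.p6), on the strand of the gene. Pdgfra lies at chr5:75152001-75152250 (plus strand), Cd34 at chr1:194938571-194938820 (plus), Dpp4 at chr2:62412232-62412481 (minus) and Cspg4 at chr9:56864854-56865103 (plus). Capitals mark matches, on either strand, to the GC box GGGCGG, the CCAAT box CCAAT, the TATA box TATAAA, the AP-1 motif TGANTCA, the EBF motif CCCNNGGG and the C/EBP motif TTGCNNAA.
Pdgfra: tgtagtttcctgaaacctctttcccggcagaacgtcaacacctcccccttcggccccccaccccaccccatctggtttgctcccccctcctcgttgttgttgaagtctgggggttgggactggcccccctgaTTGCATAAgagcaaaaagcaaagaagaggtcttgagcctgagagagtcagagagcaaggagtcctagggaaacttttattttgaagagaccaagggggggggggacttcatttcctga
Cd34: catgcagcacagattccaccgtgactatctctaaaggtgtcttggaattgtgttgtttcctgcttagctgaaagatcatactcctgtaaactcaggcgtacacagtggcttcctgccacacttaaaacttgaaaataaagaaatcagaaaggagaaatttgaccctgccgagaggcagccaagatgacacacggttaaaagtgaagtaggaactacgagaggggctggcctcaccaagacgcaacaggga
Dpp4: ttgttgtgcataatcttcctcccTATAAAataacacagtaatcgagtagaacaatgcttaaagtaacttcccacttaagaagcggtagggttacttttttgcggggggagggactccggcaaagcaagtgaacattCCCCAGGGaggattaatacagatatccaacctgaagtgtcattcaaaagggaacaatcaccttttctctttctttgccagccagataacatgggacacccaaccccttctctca
Cspg4: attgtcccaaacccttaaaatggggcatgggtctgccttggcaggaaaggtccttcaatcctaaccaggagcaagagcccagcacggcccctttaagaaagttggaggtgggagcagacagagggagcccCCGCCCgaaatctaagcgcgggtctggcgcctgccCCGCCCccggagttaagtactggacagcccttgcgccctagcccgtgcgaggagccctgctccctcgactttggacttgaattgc
Cspg4 (60.4% GC) held 2 GC boxes, starting at -120 and -85 relative to the transcript start. Pdgfra (54.4% GC) held 1 C/EBP match at -118, Dpp4 (43.6%) held 1 EBF match at -114 and a TATAAA at -227, and Cd34 (46.4%) held none of the 6 motifs. No matches overlapped. Among all 32851 upstream windows of this length in the table, whose median GC content was 52.4%, 32.7% held the GC box, 33.8% CCAAT, 12.4% TATAAA, 6.75% the AP-1 motif, 11.8% the EBF motif and 9.56% the C/EBP motif. The windows of 2 other markers, not printed, were also searched. That of Icam1, higher in white, had a GC content of 65.2% and, like Cspg4, a GC box (at -17), and that of Pi16 (52.4%) held 1 CCAAT box at -64. Those of Pdgfrb, Cd24a and Zfp423 were not examined here.

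**Figure D1:**
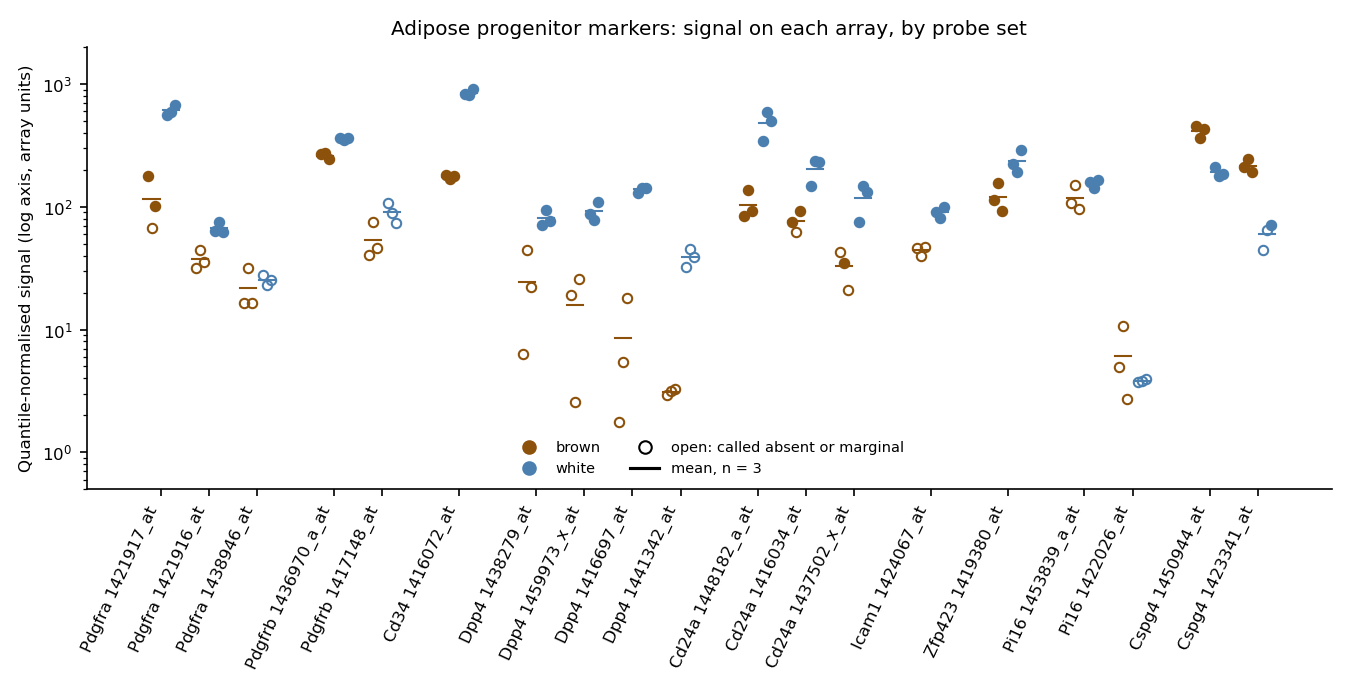
Quantile-normalised signal (log axis, array units) of the 19 probe sets on each array, with brown arrays left of white. Filled points are present calls, open points marginal or absent calls, and lines the mean of 3 arrays. The 3 white arrays lie above the 3 brown arrays for Cd34 and for the first Pdgfra probe set, and below them for both Cspg4 probe sets.

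Pdgfra, the receptor for several PDGF dimers and the most widely used marker of adipose progenitors, was lower in brown on its brightest probe set (1421917_at). The signals were 177, 67.0 and 101 on the brown arrays, against 562, 589 and 678 on the white arrays. Every white array lay at least 3.18-fold above the highest brown array, although the brown arrays spread 2.64-fold among themselves and brown replicate 2 was called marginal. The log2 difference was -2.52 (SE 0.285, adjusted p = 4.17e-05). On a dimmer Pdgfra probe set (1421916_at), called absent on all brown arrays, signals were 31.8, 44.8 and 35.3 in brown against 63.0, 74.6 and 62.0 in white, at least 1.80-fold higher in white (log2 difference -0.84, adjusted p = 0.0119). That call was lost without white replicate 2 (-0.76, adjusted p = 0.0583), and the difference was -1.31 with the deposited scaling. The last Pdgfra probe set (1438946_at) was called absent on all 6 arrays, at 16.4 to 31.9 in brown and 23.2 to 27.6 in white.

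Pdgfrb, the related receptor of mural cells and fibroblasts, differed far less. Its probe set 1436970_a_at was present on all arrays, with signals of 267, 272 and 245 in brown against 361, 348 and 361 in white. The tissues did not overlap, and the arrays of one tissue spread by at most 1.11-fold. The log2 difference was -0.45 (95% confidence interval -0.67 to -0.23, adjusted p = 0.00295), a white to brown ratio of 1.36. With the deposited scaling it was -0.93. The other Pdgfrb probe set (1417148_at) was absent on all 6 arrays, at 40.3 to 74.6 in brown and 73.9 to 108 in white.

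Cd34, a sialomucin of progenitors, endothelium and blood stem cells, was lower in brown. Signals were 182, 169 and 177 on the brown arrays, against 822, 813 and 903 on the white arrays. The lowest white array lay 4.46-fold above the highest brown array, while arrays of one tissue spread by at most 1.11-fold. The log2 difference was -2.27 (SE 0.0918, adjusted p = 2.66e-08), and it lay between -2.31 and -2.22 when any single array was left out.

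Cd24a encodes a small lipid-anchored glycoprotein found on progenitors and also on B cells, neutrophils and epithelia. On its brightest probe set (1448182_a_at) signals were 83.4, 136 and 92.6 in brown against 342, 592 and 500 in white, a log2 difference of -2.20 (SE 0.229, adjusted p = 2.27e-05). White replicate 1 was the lowest white array on each of the 3 Cd24a probe sets. The other probe sets had 75.0, 62.3 and 93.1 in brown against 148, 235 and 230 in white (1416034_at, log2 difference -1.40, adjusted p = 0.000397), and 42.9, 34.9 and 20.9 in brown against 75.5, 147 and 133 in white (1437502_x_at, -1.85, adjusted p = 0.00101). On all 3 the tissues did not overlap, and 2 of the 3 were not called present on every brown array.

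Dpp4, a membrane peptidase that cleaves short peptides from hormones and chemokines, was not detected in brown. All 4 of its probe sets were called absent on every brown array. In white, 3 of them were present on every array, and the other (1441342_at) was marginal on white replicates 2 and 3 and absent on white replicate 1. On 1416697_at signals were 1.76, 5.41 and 18.2 in brown against 130, 143 and 142 in white, at least 14.2-fold higher in white (adjusted p = 0.000299). For this bound each brown array was given its own signal or, where that was smaller, the lowest signal with a present call on that array, and geometric means over the 3 arrays of each tissue were compared. That floor, 6.79 to 9.03 on brown arrays, is the lowest present signal of any probe set and not a detection limit of Dpp4 itself. Where no absent signal fell below it, the bound equals the plain ratio of geometric means. This was so for Icam1 (2.03) and for Pdgfra on 1421916_at (1.80). Such a bound does not cover the spread between arrays.

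The bounds of the other tested Dpp4 probe sets were smaller. They were at least 5.86-fold for 1459973_x_at (arithmetic means 15.8 ± 11.9 in brown and 91.6 ± 16.4 in white, adjusted p = 0.00551) and at least 4.26-fold for 1438279_at (24.3 ± 19.3 in brown and 80.7 ± 12.5 in white, adjusted p = 0.0122). The second was 2.56-fold without brown replicate 1, and the first 4.08-fold without brown replicate 2. For 1438279_at the 95% confidence interval of the log2 difference was -3.46 to -0.80, so ratios smaller than its bound lie within it. The brown signals of these 3 probe sets spread 7.12-fold to 10.3-fold between arrays, all below detection. Single arrays moved the log2 differences, which were -2.13 for 1438279_at and -1.36 without brown replicate 1, and -3.07 for 1459973_x_at and -2.04 without brown replicate 2, while the calls were kept. The untested 1441342_at had 2.94, 3.16 and 3.27 in brown against 32.0, 45.1 and 38.8 in white.

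Pi16, a secreted peptidase inhibitor that marks the same early population as Dpp4, did not show a called difference. On 1453839_a_at the signals were 106, 149 and 96.4 in brown, all absent, against 159, 143 and 164 in white, all present. Brown replicate 2 lay above white replicate 2, so that the tissues overlapped. The log2 difference was -0.43 (95% confidence interval -0.83 to -0.03, adjusted p = 0.0692). This outcome depended on the processing. Pi16 was called higher in white with the deposited scaling (-0.98, adjusted p = 0.000821), with spike-in scaling (-0.98, adjusted p = 0.000648), with median centring (-0.53, adjusted p = 0.0306) and without brown replicate 2 (-0.61, adjusted p = 0.00766). The other Pi16 probe set (1422026_at) was absent on all 6 arrays, at 2.71 to 10.8 in brown and 3.72 to 3.96 in white.

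Icam1, an adhesion molecule that marks committed preadipocytes and is also made by endothelium and leukocytes, was called absent on all brown arrays and present on all white arrays. Signals were 46.0, 39.8 and 47.3 in brown against 91.1, 80.7 and 98.7 in white. The tissues did not overlap, and Icam1 was at least 2.03-fold higher in white (log2 difference -1.02, adjusted p = 0.00145).

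Zfp423, the nuclear regulator among the markers, was present on all 6 arrays. Signals were 113, 157 and 92.3 in brown against 222, 191 and 290 in white. The gap between the tissues was narrow, the lowest white array being 1.22-fold above the highest brown array, brown replicate 2. The log2 difference was -0.97 (SE 0.217, adjusted p = 0.00369), and -1.50 with the deposited scaling.

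Cspg4 was the only marker of the 9 measured that was higher in brown, and both of its probe sets were. On 1450944_at, present on all arrays, signals were 454, 364 and 431 in brown against 210, 177 and 186 in white, a log2 difference of 1.12 (SE 0.122, adjusted p = 3.12e-05). On 1423341_at they were 210, 244 and 194 in brown, all present, against 44.7, 65.1 and 70.9 in white, where only white replicate 3 was present, with a log2 difference of 1.87 (SE 0.20, adjusted p = 2.75e-05). The lowest brown array exceeded the highest white array 1.73-fold on the first and 2.73-fold on the second. With the deposited scaling the first difference was 0.63 and was still called (adjusted p = 0.00121).

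**Figure D2:**
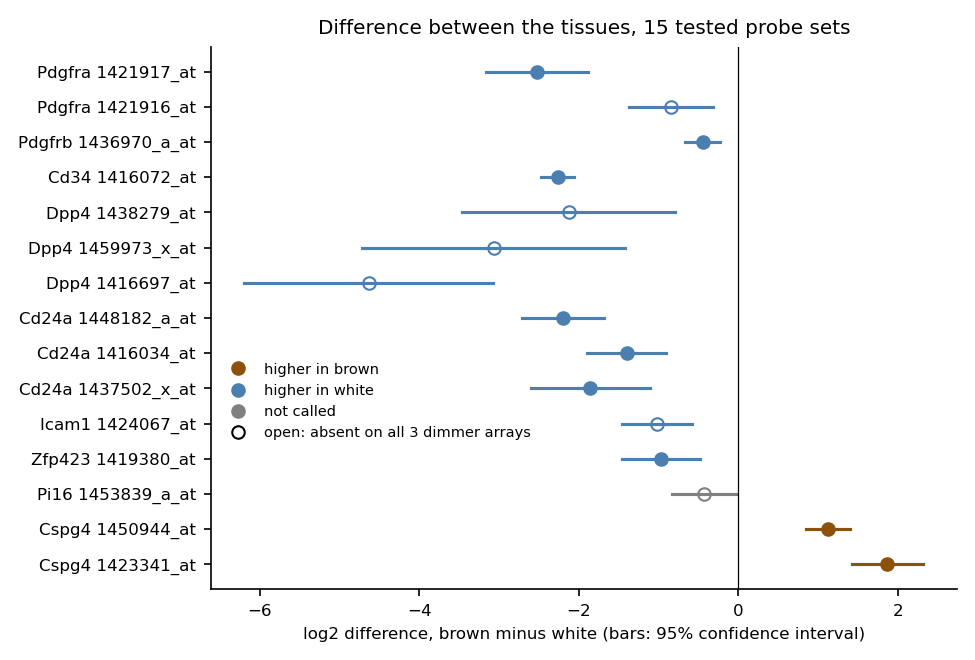
Log2 difference, brown minus white, of the 15 tested probe sets with 95% confidence intervals. Open points had no present or marginal call in the dimmer tissue. Of the 15, the 2 Cspg4 probe sets lie right of 0 at 1.12 and 1.87, and the Pi16 difference of -0.43 was not called.

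The differences were set beside lists of genes that share a population or pathway with the markers, each gene read by its brightest tested probe set. The first list holds further genes of the early, Dpp4-marked population. Of 11 such genes 8 were tested, and brown was higher for 0 and white for 7 (median log2 difference -1.91, with -0.04 over all genes tested). The filter bears on this count, since 4 of the 7 passed it through present calls on white arrays alone, while of the 4 genes present in both tissues white was higher for 3. The transcription factor gene Creb5 was at least 6.02-fold, the secreted guidance factor Sema3c at least 8.95-fold and the sphingomyelinase gene Smpd3 at least 4.74-fold higher in white. Limch1 was not called (232 ± 24.5 in brown and 249 ± 24.1 in white, adjusted p = 0.511). Wnt2, a Wnt ligand of this population, was called absent on all 6 arrays (5.34 ± 4.32 in brown and 24.8 ± 3.78 in white).

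Genes linked to committed preadipocytes went both ways. Of 10, brown was higher for 2 and white for 6, and 2 missed the threshold (median -0.48). Dlk1, the surface protein of preadipocytes also known as Pref-1, had 131 ± 31.8 in brown against 56.0 ± 16.1 in white (log2 difference 1.24, adjusted p = 0.00304). Ggt5, a gamma-glutamyltransferase, was also higher in brown (0.98). The basement membrane collagens Col15a1 (-1.86), Col4a1 (-1.55) and Col4a2 (-1.20) were higher in white. Fabp4, shared with mature adipocytes, was not called (-0.03, adjusted p = 0.466). With median centring 5 of this list were higher in brown.

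Of 7 genes of the adipogenesis-regulatory population, brown was higher for 0, white for 4 and neither for 3 (median -0.66). Gdf10, a secreted factor of the BMP family, had 72.8 ± 15.7 in brown against 402 ± 17.3 in white (-2.49). White exceeded brown at least 2.99-fold for the monooxygenase gene Fmo2, the proteoglycan biglycan (Bgn) was higher in white by a difference of -1.30, and Abcg1 was not called (-0.21, adjusted p = 0.231). All 12 general stromal surface genes were higher in white (median -1.01). Among them were podoplanin (Pdpn, at least 9.10-fold), the adhesion molecule Alcam (at least 7.82-fold, but 4.35-fold without brown replicate 1) and Mcam (-2.63). The filter bears on this count as well, since 3 of the 12, Pdpn and Alcam among them, were tested through present calls on white arrays alone. Of the 9 present in both tissues, white was higher for 9.

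Of the 4 PDGF ligands, brown was higher for 1, white for 1 and neither for 2. Pdgfc, a ligand of the alpha receptor, had 166 ± 9.51 in brown against 395 ± 27.6 in white (-1.25, adjusted p = 5.89e-06). Pdgfd, a ligand of the beta receptor, had 176 ± 19.6 in brown against 107 ± 15.6 in white (0.72, adjusted p = 0.00334), a call lost with the deposited scaling (0.17). Pdgfa (99.3 ± 26.4 in brown and 107 ± 20.3 in white) and Pdgfb (217 ± 11.4 in brown, called absent or marginal, and 209 ± 22.6 in white) were not called (adjusted p = 0.665 and 0.707), but both were called higher in white with the deposited scaling (-0.66 and -0.47). Over the list of PDGF ligands and signalling, brown was higher for 1 of 19 tested genes, Pdgfd, and white for 14 (median -0.51). Of the 14, 2 (Src and Grb2) were tested through present calls on white arrays alone. Of the 16 genes present in both tissues, white was higher for 12 and brown for 1. Among those higher in white were the kinase Src (at least 4.61-fold, but 2.80-fold without brown replicate 1), the phosphatase gene Ptprj (-1.67) and Plat, whose product tissue plasminogen activator can activate the Pdgfc protein (-1.62). The coreceptor Nrp1 was not called (-0.02), but was higher in brown with median centring (0.25). With the deposited scaling 0 genes of this list were higher in brown, where 12.8% of all tested probe sets were.

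Partners of Zfp423 and other preadipocyte regulators were also divided, brown being higher for 3 of 17, white for 10 and neither for 4 (median -0.83). Of the 10, 3 were tested through present calls on white arrays alone, Zfp521 and Bmp4 among them. Of the 14 genes present in both tissues, white was higher for 7 and brown for 3. Zfp521, a close relative and antagonist of Zfp423, was at least 4.68-fold higher in white, Tcf7l2, a transcription factor of Wnt signalling, differed by -1.98, and Bmp4, a ligand that commits progenitors to the fat lineage, was at least 2.18-fold higher in white. Prdm16, a regulator of brown fat identity (2.38), Ebf3 (1.25) and the brown fat regulator Ebf2 (0.72) were higher in brown. The Ebf2 difference was 0.28 with the deposited scaling, and with spike-in scaling (0.28) its call was lost (adjusted p = 0.12). Ebf1, of the same family, was higher in white (-0.98). Ehmt1, a methyltransferase that works with Prdm16, was not called (-0.22, adjusted p = 0.067).

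**Figure D3:**
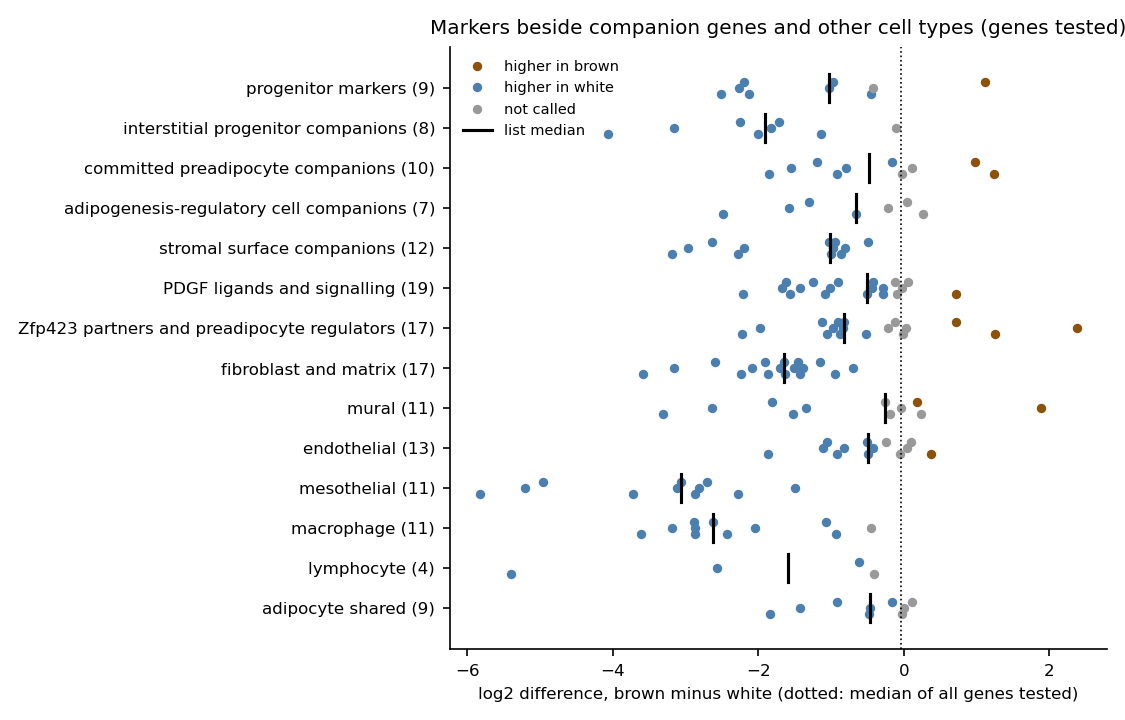
Log2 difference, brown minus white, of each tested gene in the marker set and in lists of companion genes and other cell types, with the number tested in brackets. Black bars are list medians (-1.02 for the markers, -1.91 for the early population, -1.65 for fibroblast and matrix genes, -0.25 for mural genes), and the dotted line is the median of all genes tested, -0.04.

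Genes of other cell types that carry some of these markers moved as well, and their part in the marker differences was not tested. All 17 fibroblast and matrix genes tested were higher in white (median -1.65). Their summed signal was 15260 to 15760 on brown arrays against 53520 to 54370 on white arrays, and fibronectin (Fn1, -3.59), Mfap5 (-3.16) and dermatopontin (Dpt, -2.60) led. All 11 mesothelial genes tested were higher in white (median -3.06), 8 of them tested through white present calls alone. Their sum was 524 to 586 on brown arrays, where 8 of 12 were absent on all arrays, against 5556 to 5900 on white arrays, with Msln at least 12.5-fold, Slpi at least 37.0-fold and Upk3b at least 31.0-fold higher in white.

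Of 11 macrophage genes tested 10 were higher in white (median -2.63), with sums of 2887 to 3416 on brown arrays and 18950 to 19730 on white arrays. C1qc (-3.61), Lyz2 (-3.19) and Cd163 (-2.88) differed most, and Fcgr1 was not called (-0.46, adjusted p = 0.205). Lymphocytes also carry Cd24a. Of 10 lymphocyte genes on the array 4 were tested, and Ighm (at least 42.0-fold), Ptprc (-2.56) and Cd2 (-0.62, adjusted p = 0.0379, kept in 1 of 6 fits without an array) were higher in white, while Ms4a1 was not called (adjusted p = 0.0997) and the T cell genes Cd3d, Cd3e and Cd3g were absent on all arrays. The summed lymphocyte signal was 494 to 553 on brown arrays and 5409 to 6389 on white arrays. Bright probe sets weigh most in such a sum, and Ighm had the largest called difference (-5.39). Of the 10 genes, 8 were absent on all brown arrays and 5 on all white arrays, so the sum is not read as an amount of lymphocytes. Neutrophil genes ran the other way where called, with Ngp higher in brown (1.10), 2 of 3 tested not called, S100a9 among them (0.73, adjusted p = 0.103), and sums of 369 to 553 on brown arrays and 247 to 307 on white arrays.

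Endothelial genes, which bear on Cd34 and Icam1, numbered 13, of which brown was higher for 1, white for 8 and neither for 4 (median -0.49). With the deposited scaling brown was higher for 0 and white for 12, beside 12.8% and 54.4% of all tested probe sets. Vwf (-1.86), Cldn5 (-1.11) and Cdh5 (-1.06) were higher in white, Kdr was not called (0.04, adjusted p = 0.774), and Flt1 was higher in brown (0.38) but had -0.12 with the deposited scaling. Their summed signal was 4587 to 4782 on brown arrays against 6552 to 6685 on white arrays.

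Mural genes bear on Pdgfrb and Cspg4. Of 11, brown was higher for 2, white for 5 and neither for 4 (median -0.25). With the deposited scaling brown was higher for 1 and white for 8, beside 12.8% and 54.4% of all tested probe sets. Summed signals were 5930 to 6380 on brown arrays against 8637 to 9123 on white arrays. Desmin (Des, 177 ± 28.0 in brown and 49.8 ± 16.7 in white, at least 3.68-fold) and the pericyte gene Rgs5 (3107 ± 13.2 in brown and 2730 ± 145 in white, log2 difference 0.19) were higher in brown, though Rgs5 was not called with the deposited scaling (0.15, adjusted p = 0.0658). Anpep (at least 9.87-fold), Mcam (-2.63) and the contractile gene Tagln (-1.81) were higher in white, and Notch3, a receptor of mural cells, was not called (-0.19, adjusted p = 0.167). Mcam stands in both the stromal surface and the mural list.

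**Figure D4:**
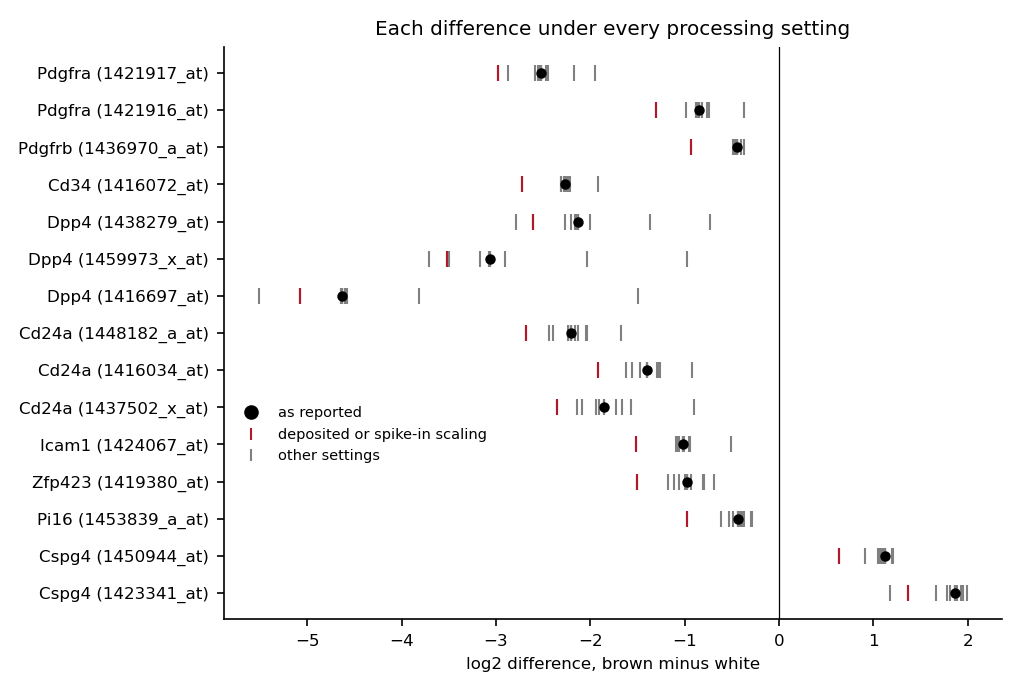
Log2 difference, brown minus white, of the 15 tested probe sets as reported (black points) and under each alternative setting (ticks, with deposited and spike-in scaling in red). Each probe set stayed on its side of 0 throughout, and the 3 differences of Dpp4, whose brown signals were all called absent, spread most.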

How the data were processed

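The authors deposited, for each array, a linear signal intensity per probe set with a present, marginal or absent call and the detection p-value behind it, per the file headers. How that intensity was scaled, and in which software version, is not stated by the labels or headers used. The deposited series table of intensities was used only as a check. Its columns named brown correlated, over log2 signals of all probe sets, at 0.788 to 0.794 with the brown array files and at 0.848 to 0.874 with the white ones, and those named white at 0.778 to 0.789 with the white files and at 0.814 to 0.848 with the brown ones. Because tissue runs opposite there, the array files with their own labels were used.

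After 64 control probe sets were left out, log2 signals (the 1 signal of 0 set to 0.1) were quantile-normalised. Probe sets present on at least 3 of 6 arrays were tested, 19819 in all, with limma 3.58.1 in R 4.3.3 (lmFit, eBayes with trend), Benjamini-Hochberg adjustment and a threshold of 0.05. Symbols came from the platform annotation, in which 34945 probe sets have 1 symbol, 932 several and 9160 none. A listed gene is read by its brightest tested probe set and keeps that probe set's adjusted p over all probe sets tested. From each list the text names up to 3 called genes with the largest differences in the main direction, up to 2 in the other and the brightest one not called. All PDGF ligands are named as well, whatever their values, and Wnt2, Ebf1 and Ebf2 were added after their values were seen. "At least" marks a gene with only absent calls in the dimmer tissue. Its value is the plain ratio of geometric means where no absent signal fell below the floor described for Dpp4. The fit was tested on simulated data. The members and lists were chosen with earlier results of these data known.

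Nothing in the labels ties a replicate number to one mouse. Deviations of same-numbered brown and white arrays from their tissue means correlated at 0.017, -0.014 and -0.046, and those of differently numbered arrays at -0.051 to 0.067. A mouse could carry different numbers in the tissues, so the same-numbered values cannot show that no arrays share a mouse. As the pairs are not known, the arrays were compared without a block. P-values measure the spread between these samples.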

Additional observations from a re-analysis of the deposited data

How the results depend on the processing

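The 15 differences were recomputed with 3 other scalings, without and with a stricter detection filter, with 64 signal units added, without a trend, with a replicate block, without probe sets prone to cross-hybridisation and without each array. None reversed direction in any of these. With the replicate number as a block, brown was higher for 2 probe sets and white for 12, as without it, and no call changed. Of all tested probe sets 23.7% and 29.1% were then higher in brown and in white. With detection on every array required, only 5 member probe sets were tested, and the counts were then 1 higher in brown and 4 in white (31.2% and 30.0% of all such probe sets). Without any single array 2 were higher in brown throughout and 11 to 13 in white, 11 without white replicate 2. Of all tested probe sets 22.1% to 23.9% were higher in brown in these fits and 26.1% to 29.5% in white. The median difference of all tested probe sets was -0.53 with deposited or spike-in scaling and -0.06 after quantile normalisation, and differences are relative to that level. With 64 signal units added, the differences of dim probe sets shrank, that of Dpp4 on 1416697_at to -1.49, 1438279_at to -0.74 and 1459973_x_at to -0.97, that of Icam1 to -0.51, that of Pdgfra on 1421916_at to -0.37, those of Cd24a to -0.92 (1416034_at) and -0.90 (1437502_x_at) and that of Cspg4 on 1423341_at to 1.18, with all these calls kept. Read as the mean over all tested probe sets of each gene, the list medians moved to -0.81 for committed preadipocyte genes, -0.90 for the adipogenesis-regulatory population, -0.33 for Zfp423 partners, -0.53 for mural, -2.33 for macrophage and 4.43 for brown adipocyte genes. Under deposited scaling more genes of several lists were higher in white, 17 of the PDGF list, 13 of the Zfp423 partners, 12 of the endothelial and 11 of the macrophage genes, against 14, 10, 8 and 10 as reported. The same held for all tested probe sets, of which 54.4% were then higher in white and 12.8% in brown, against 29.9% and 24.6% as reported. The detection filter bears on the other lists too. Among tested genes present in both tissues, white was higher for 6 of 9 committed preadipocyte genes and brown for 1. These counts were 3 of 6 and 0 for adipogenesis-regulatory genes and 16 of 16 and 0 for fibroblast and matrix genes. They were 9 of 9 and 0 for macrophage, 2 of 2 and 0 for lymphocyte, 7 of 12 and 1 for endothelial and 4 of 9 and 1 for mural genes. For the counts of genes present in both tissues, the share over all such genes is not given here. Among all probe sets present on all 6 arrays, 30.0% were higher in white and 31.2% in brown. Absent calls on all brown arrays limit what can be said of Dpp4, Icam1, Pi16 and the dimmer Pdgfra probe set 1421916_at. Those of Pi16 on 1453839_a_at came at a mean brown signal of 117 ± 28.1.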

Other observations

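Relatives, genes of similar name and binding partners of the markers gave their own patterns. In the Ly6 family, the relatives of Ly6a, 9 genes had a probe set of their own and 3 were tested. Ly6e had 941 ± 52.8 in brown against 3006 ± 266 in white (log2 difference -1.67, adjusted p = 7.11e-08), Ly6g6c was higher in brown (0.68, adjusted p = 0.0309), a call lost with the deposited scaling (0.18) and kept in 3 of 6 fits without an array, and Ly6g6e was not called (adjusted p = 0.48). Of 7 Icam1 relatives and leukocyte integrins that bind Icam1 on the array, 4 were tested and these 4 were higher in white. The filter bears on this count, since 2 of the 4, Itgam and Itgax, were tested through present calls on white arrays alone. The 2 present in both tissues were also higher in white. The common integrin chain Itgb2 differed by -2.55, and its partners Itgam and Itgax were at least 3.78-fold and at least 2.37-fold higher in white. Macrophages carry these integrins, and their part in the differences was not tested.

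Among genes listed with Dpp4 by name or relation, the fibroblast protease Fap had 87.7 ± 7.61 in brown against 190 ± 13.0 in white (-1.12, adjusted p = 8.49e-05). Dpp3 was higher in brown (0.63, adjusted p = 0.0087), a call lost with the deposited scaling (0.09), and 3 of the 5 tested were not called, Dpp8 among them (0.27, adjusted p = 0.0541). With the deposited scaling 0 of the 5 were higher in brown and 2 in white, beside 12.8% and 54.4% of all tested probe sets. Podxl, a sialomucin related to Cd34, had 324 ± 19.6 in brown and 334 ± 14.1 in white and was not called (adjusted p = 0.702), but was with the deposited scaling (-0.53). Lists of brown and white adipocyte genes served to check the labels. All 10 brown adipocyte genes were higher in brown, with Cidea at 8.28 and Cox7a1 at 7.26 on the log2 scale beside Ucp1, and all 7 tested white adipocyte genes were higher in white, with Agt at least 174-fold, Sncg at -7.01 and Nnat at -5.12. The filter bears on both counts. Of the 10, 4 were tested through present calls on brown arrays alone, and of the 7, 2 through those on white arrays alone. Among genes present in both tissues, brown was higher for 6 of 6 brown adipocyte genes and white for 5 of 5 white adipocyte genes. Of 9 genes shared by both adipocyte types white was higher for 6 and neither for 3 (median -0.47), and with median centring 4 were higher in brown and 3 in white. Plin4 (-1.83), Cidec (-1.42) and Cd36 (-0.91) were higher in white, and stayed so with median centring (-1.39, -0.94 and -0.39). Fabp4 was not called as reported, but was higher in brown with median centring (0.35, adjusted p = 8.15e-05).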
